A study of Mus musculus with 39 samples.

Results

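This report describes 1053 chromatin regions that carried H3K4me1 and H3K27ac in double-positive (DP) cells of mouse naive extra-embryonic endoderm (nEnd) and H3K27ac in the Oct4+ cells of the same culture. They were chosen by listed peaks. Peaks of the 3 replicates of a mark and population were merged, and merged regions backed by 2 or more replicates were kept as consensus regions. The members are DP H3K4me1 consensus regions that lay outside promoters (1 kb upstream to 100 bp downstream of a transcription start site, TSS), touched H3K27ac consensus regions of DP and of Oct4+ and touched no DP H3K27me3 consensus region. Of 8068 DP H3K4me1 consensus regions, 5591 lay outside promoters, 1850 of these had DP H3K27ac and no DP H3K27me3 consensus region (the active DP regions), and 1053 of the 1850 (56.9%) were shared with Oct4+. A Pdgfra+ H3K27ac consensus region touched 655 members (62.2%), and 398 (37.8%) had none. The 797 active DP regions without an Oct4+ H3K27ac consensus region are called the other active regions.

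The peaks came from 36 CUT&Tag libraries, in which an antibody guides a transposase to the DNA around a histone mark. Untreated nEnd cells of a single OCT4-mCherry reporter line, grown on feeder fibroblasts with Activin A, CHIR99021 (an inhibitor of GSK3) and LIF, were sorted by flow cytometry into Oct4+ (OCT4-mCherry alone), DP (OCT4-mCherry and PDGFRA) and Pdgfra+ (PDGFRA alone) cells. Each population was profiled for H3K4me1, H3K27ac, H3K27me3 and H3K9me3 in 3 replicates. The study calls them biological replicates, and the labels do not say whether they were separate cultures, so p-values measure the spread between these libraries. Read depth was not given, and lists ran from 1074 to 16057 peaks for H3K4me1, 3079 to 65131 for H3K27ac, 1143 to 8672 for H3K27me3 and 5322 to 29970 for H3K9me3. Absence from a list does not show absence of the mark. In sorted pools, a mark on few cells and a weak mark on every cell cannot be told apart.

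H3K4me1 marks enhancers, stretches of DNA that raise transcription of genes at a distance, whether they are in use or held ready, and H3K27ac marks those in use. H3K27me3 is laid down by Polycomb and H3K9me3 marks heterochromatin. OCT4 and its partners hold the pluripotent epiblast programme, while GATA factors and PDGFRA belong to primitive endoderm. Enhancer activity itself was not measured here, so the members are called regions.

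The gates were checked at promoters of marker genes. H3K27ac consensus regions lay over the promoters of 5 of 5 epiblast genes in Oct4+ (Pou5f1, Nanog, Sox2, Esrrb and Zfp42) and of 0 of 5 in DP and Pdgfra+, although 1 of 3 DP and 1 of 3 Pdgfra+ libraries had an H3K27ac peak at Pou5f1, which encodes OCT4, and 1 of 3 DP libraries at Zfp42. Of 5 endoderm genes, Gata6, Gata4, Sox17, Pdgfra and Dab2, the promoter was covered for 5 in DP, 3 in Pdgfra+ and 1 in Oct4+, the last being Gata6. Dab2 in DP had a peak over the promoter itself in only 1 of 3 libraries, and the merged region reached the threshold beyond it. Elf5, in Oct4+, was the only one of 5 trophectoderm genes covered in any population. None of 12 fibroblast genes, read as markers of feeder cells, was covered in any population, but promoter H3K27ac over Lum, Twist1 and Pdgfrb was listed in 1 library each. A small share of feeder cells could go unlisted, so these lists cannot exclude them.

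The reference sequence (RefSeq copy of GRCm38, plus strand) under the DP H3K4me1 maximum is shown for 7 members that recur in the results. Mapt and Elovl5 stand for members with Pdgfra+ H3K27ac and Phlda1 and Kcmf1 for members without it, all 4 among the members of highest rank, and Tfcp2l1, Lifr and Hspg2 for pathways described further on. Capitals mark matches, on either strand, to short motifs of factor families. For the pluripotency factors the letters were ATGCAAA for the OCT family and AAGGTCA for the nuclear receptors ESRRB and NR5A2. ACAATGG stood for the SOX family and CACNCCC for the KLF family. Both families include pluripotency genes (Sox2, Klf4) and endoderm genes (Sox17, Klf6). For endoderm factors GATAAG stood for the GATA family and TGTTTAC for the FOX family. The motif of the Hippo effectors TEAD was GGAATGT, and that of the dimer AP-1 was TGANTCA. The LIF effectors of the STAT family were read as TTCCNGGAA, and the trophectoderm factors of the TFAP2 family as GCCNNNGGC. A match is a description of letters and not a site of binding. Each window is 200 bases.
Mapt, chr11:104295684-104295883: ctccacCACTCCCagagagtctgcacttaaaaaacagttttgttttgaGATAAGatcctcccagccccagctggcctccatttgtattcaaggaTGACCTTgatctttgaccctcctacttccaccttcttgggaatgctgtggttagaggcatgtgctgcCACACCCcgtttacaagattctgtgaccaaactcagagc
Elovl5, chr9:77910604-77910803: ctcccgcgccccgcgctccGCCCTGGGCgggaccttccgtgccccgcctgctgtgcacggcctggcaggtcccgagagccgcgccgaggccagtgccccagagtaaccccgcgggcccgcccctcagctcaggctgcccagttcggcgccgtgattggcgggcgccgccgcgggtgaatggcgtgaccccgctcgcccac
Phlda1, chr10:111576006-111576205: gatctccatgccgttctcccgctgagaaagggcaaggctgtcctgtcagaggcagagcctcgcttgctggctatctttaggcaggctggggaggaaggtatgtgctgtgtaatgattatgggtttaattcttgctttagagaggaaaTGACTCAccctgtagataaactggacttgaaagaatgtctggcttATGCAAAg
Kcmf1, chr6:72926997-72927196: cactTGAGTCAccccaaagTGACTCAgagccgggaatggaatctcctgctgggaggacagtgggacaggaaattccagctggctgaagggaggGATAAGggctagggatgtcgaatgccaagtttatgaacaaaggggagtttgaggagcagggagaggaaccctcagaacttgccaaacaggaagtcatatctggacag
Tfcp2l1, chr1:118650337-118650536: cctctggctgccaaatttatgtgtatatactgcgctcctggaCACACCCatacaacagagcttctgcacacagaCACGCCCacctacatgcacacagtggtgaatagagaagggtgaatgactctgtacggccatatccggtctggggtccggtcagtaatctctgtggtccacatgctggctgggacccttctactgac
Lifr, chr15:7089433-7089632: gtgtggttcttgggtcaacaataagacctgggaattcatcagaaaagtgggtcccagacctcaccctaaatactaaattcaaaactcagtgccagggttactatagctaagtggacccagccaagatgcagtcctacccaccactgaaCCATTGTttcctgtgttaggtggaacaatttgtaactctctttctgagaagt
Hspg2, chr4:137479671-137479870: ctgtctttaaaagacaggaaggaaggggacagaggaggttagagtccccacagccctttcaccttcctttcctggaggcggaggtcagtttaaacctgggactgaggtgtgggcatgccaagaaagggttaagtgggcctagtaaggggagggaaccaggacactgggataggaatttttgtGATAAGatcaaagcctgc

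The Mapt window holds 2 KLF, 1 GATA and 1 ESRRB and NR5A2 matches, and 36.5% of it is repeat sequence. The Elovl5 window has a GC content of 78%, the highest of the 7, and 1 TFAP2 match. Phlda1 carries 1 OCT and 1 AP-1 match, Kcmf1 2 AP-1 and 1 GATA matches, Tfcp2l1 2 KLF matches, Lifr 1 SOX match and Hspg2 1 GATA match. Not every window of a high-ranking member holds a match. That of Gpr107, the highest in rank without Pdgfra+ H3K27ac, is not shown and had none.

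Members were wide and mostly intronic. Their median width was 5876 bp (quartiles 4258 and 8692 bp), against 4825 bp for the other active regions and 4338 bp for all 5591 DP H3K4me1 regions outside promoters. The midpoint lay in an intron for 748 members (71%), between genes for 255 (24.2%) and in an exon for 50 (4.75%), and the other active regions were intergenic more often by count (292 of 797, 36.6%). Distances were taken from the edge of a region to the most upstream annotated start of a protein-coding gene. The nearest was a median of 17 kb away, and 572 members (54.3%) lay within 20 kb of one. Some members touched promoters of transcripts outside the basic annotation used here: with promoters of the full annotation, 863 of the 1053 (82%) remained.

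The values that chose the members are given as a description only. H3K27ac peaks lay over 96.1, 98.6 and 49.8% of members in Oct4+ replicates 1 to 3 and over 97.7, 41.8 and 96.9% in the DP replicates. Oct4+ replicate 3 and DP replicate 2, with lists of 8574 and 3079 peaks, were the low libraries. All 3 Oct4+ libraries had an H3K27ac peak over 504 members, 2 over 513, and 1 over 36, where the merged region reached the threshold beyond the member. In DP all 3 libraries had one over 424 members, 2 over 588, and 1 over 41, likewise. Just outside the rule stood 30 other active regions with peaks in 2 Oct4+ libraries but no consensus region, and 391 with a peak in 1.

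Oct4+ cells also carried H3K4me1 at many members, a mark of theirs that the rule did not use. An Oct4+ H3K4me1 consensus region touched 578 members (54.9%), against 106 of 797 other active regions (13.3%) and 29.5% of all DP H3K4me1 regions outside promoters. Members were chosen by Oct4+ H3K27ac and the other active regions by its lack, so this contrast within Oct4+ is not independent of the rule. A Pdgfra+ H3K4me1 consensus region touched 384 members (36.5%), much like the 295 other active regions (37%), with 20.1% of all regions as background. Both marks were therefore listed in Oct4+ at 578 members, and H3K27ac without H3K4me1 at 475 (45.1%).

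By library, Oct4+ H3K4me1 peaks lay over 31.9, 73.9 and 52.1% of members and over 6.02, 25.8 and 11.7% of the other active regions. Members were higher in each of the 3 libraries, by 25.9, 48 and 40.5 percentage points (38.1 ± 11.3, SD, n = 3). In Pdgfra+ libraries H3K4me1 lay over 29.9, 20.8 and 85.2% of members, and the difference from the other active regions was 1.31, 1.1 and -4.4 points (-0.665 ± 3.24, n = 3). The groups of differences did not overlap, and the gap of 38.8 points between populations had an exact two-sided permutation p of 0.10, the smallest that 3 against 3 libraries allows (adjusted p = 0.30 over the 6 tests made here). With the same number of H3K4me1 peaks taken from each library the gap was 13 points. Because Oct4+ H3K27ac split members from the other active regions, the gap is not free of the rule. The share of members itself did not separate the populations, at 52.6 ± 21% in Oct4+ and 45.3 ± 34.8% in Pdgfra+ (n = 3 each, exact permutation p = 0.80, adjusted p = 0.80), and this difference of 7.34 points turned to -15.5 without replicate 2 and to -6.65 with equal numbers of peaks.

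**Figure D1:**
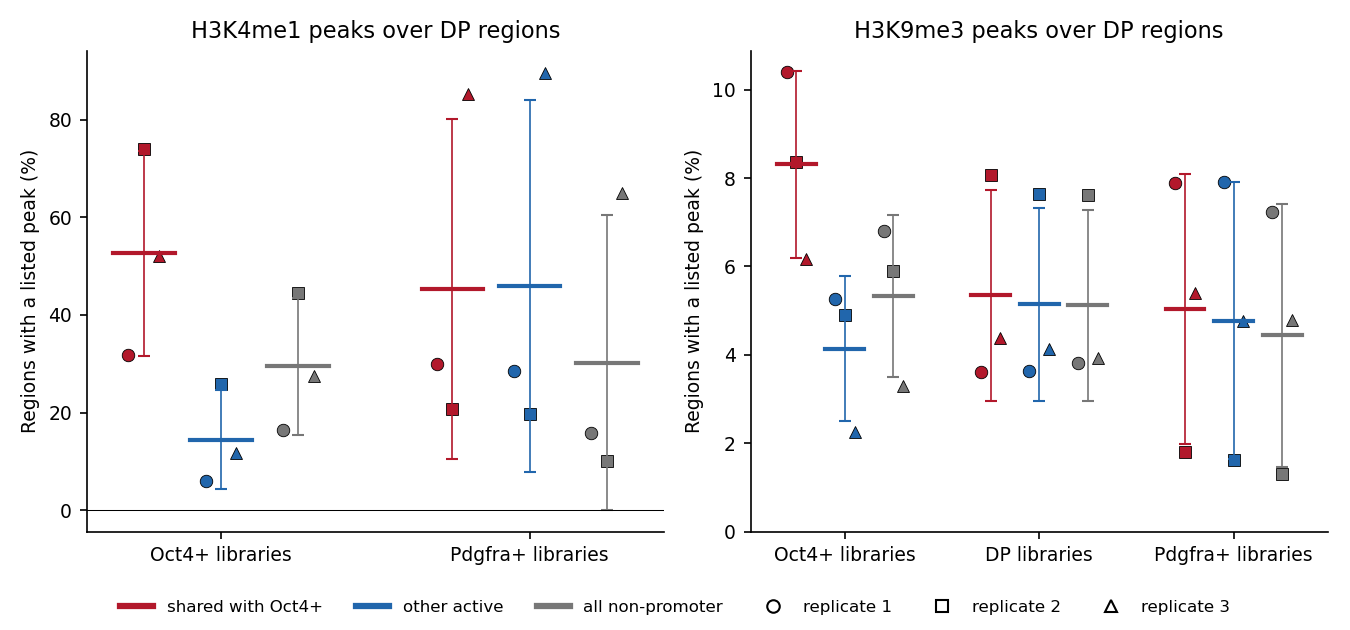
Share of regions with a listed H3K4me1 peak (left) or H3K9me3 peak (right), in percent, for members, other active regions and all 5591 DP H3K4me1 regions outside promoters; symbols are single libraries, thick lines are means and error bars are SD (n = 3). In Oct4+ libraries each red symbol stands above the blue symbol of the same replicate for both marks, while in Pdgfra+ libraries H3K4me1 at members and other active regions lay within 4.4 points of each other.

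Pdgfra+ H3K27ac divided the members into subsets that differed in their DP acetylation. Of all DP H3K4me1 regions outside promoters, 20% had a Pdgfra+ H3K27ac consensus region, against 62.2% of members and 47.9% of the other active regions. Pdgfra+ libraries listed H3K27ac over 58.9, 61.2 and 60% of members and over 45.8, 58.1 and 42.4% of the other active regions, so members were higher in 3 of 3 libraries (difference 11.3 ± 7.44 points, exact sign-flip permutation p = 0.25, the smallest possible with 3 libraries, adjusted p = 0.339). The difference was 3.95 points when only the central 1 kb of each region was read and 1.87 points with a peak over 50% of the region, and in both it turned negative in replicate 2 (-6.03 and -7 points). With members from consensus of all 3 libraries it was 1.88 points, negative in replicates 1 and 2. H3K27ac was listed in all 9 libraries over 171 members (16.2%), and both H3K27ac and H3K4me1 in all 18 over 23 (2.18%). By the rule no other active region had H3K27ac peaks in all 3 Oct4+ libraries, so these counts have no background there. Their shares over all DP H3K4me1 regions were not computed. At the other end, 205 members (19.5%) had no Pdgfra+ H3K27ac peak in any library. The same held for 224 of 797 other active regions, so this was not particular to members. Its share over all DP H3K4me1 regions was not computed. Of the 398 members without a consensus region, 190 had a peak in 1 library, and 3 had 2 peaks that did not meet.

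The height of a peak was read as its rank, the percentile of its maximum signal among all peaks of its library. Lists differed in length, so equal percentiles in different populations do not mean equal places or heights. In DP libraries the median H3K27ac percentile, over members with a peak, was 66.8, 46 and 69.2 with Pdgfra+ H3K27ac and 28.8, 28.9 and 29.5 without it. The medians of the subsets did not overlap, though single members did. DP replicate 2, the shortest list, had a peak over 59.7% of the former and 12.3% of the latter. DP H3K4me1 had the same medians in both subsets, 63, 74.1 and 67.2. In Oct4+ libraries the H3K27ac medians lay at 79.8, 87.6 and 56 with and 73.4, 82.7 and 56 without. The pattern was not particular to the members, since the other active regions had DP H3K27ac medians of 58.3, 46 and 72.2 with and 28.8, 20.8 and 33.9 without Pdgfra+ H3K27ac. Members without Pdgfra+ H3K27ac were also narrower (median 5406 against 6229 bp) and more often intergenic by count (29.6 against 20.9%). These values are descriptions, because H3K27ac in DP helped to choose the members.

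**Figure D2:**
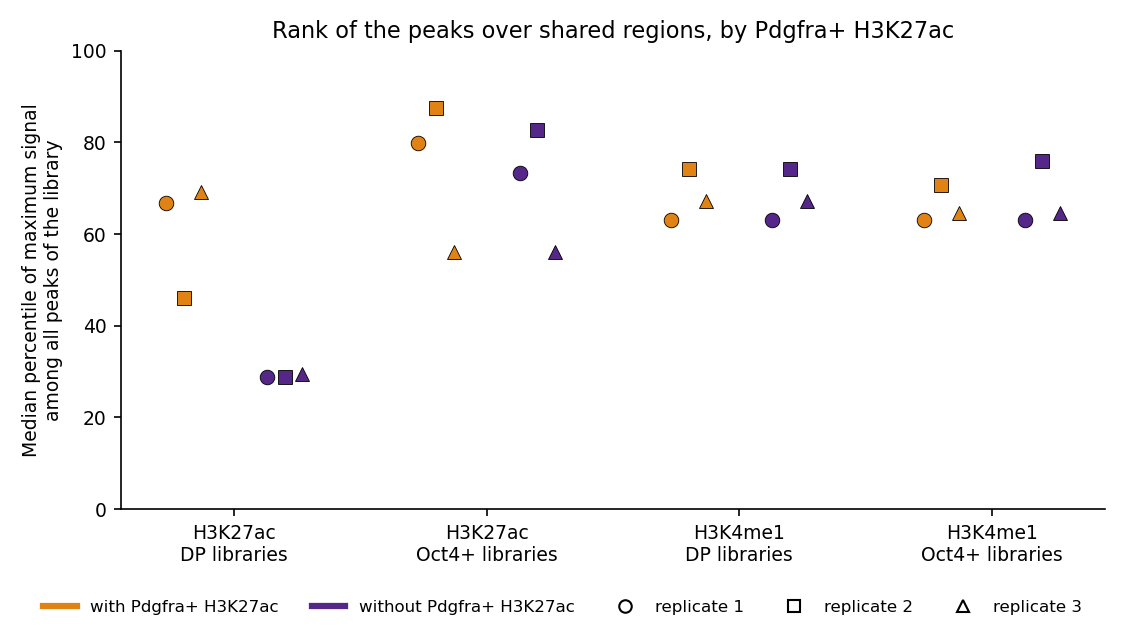
Median percentile of maximum signal of the peaks over members, by library, for members with (orange) and without (violet) Pdgfra+ H3K27ac; symbols are replicates and the percentile is among all peaks of the same library. DP H3K27ac stood at 46 to 69.2 with and 28.8 to 29.5 without Pdgfra+ H3K27ac, while DP H3K4me1 was the same in both subsets.

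In Pdgfra+ cells the members fell into 4 states by consensus regions. Neither H3K4me1 nor H3K27ac had a Pdgfra+ consensus region at 288 members (27.4%), H3K4me1 alone was found at 110 (10.4%), H3K27ac alone at 381 (36.2%) and both marks at 274 (26%). The same states held 36.9, 15.2, 26.1 and 21.8% of the other active regions and 68.5, 11.5, 11.4 and 8.62% of all DP H3K4me1 regions outside promoters. Members with both marks in all populations numbered 173 (16.4%), and those with both in Oct4+ and neither in Pdgfra+ 147 (14%). Both counts need Oct4+ H3K27ac, which the rule gives to every member and to no other active region. Their shares over all DP H3K4me1 regions were not computed.

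Among members with Pdgfra+ H3K27ac, some of those with the highest mean H3K27ac percentile over the DP and Oct4+ libraries lay near Mapt, Elovl5, Arid1b, Mnt and Rpp14. The member in an intron of Mapt, which encodes the microtubule protein tau, chr11:104284662-104307445, had H3K27ac percentiles of 99.9, 99.6 and 99.8 in Oct4+, 98.5, 97.8 and 97.1 in DP and 90.9, 92.6 and 84.4 in Pdgfra+. It had H3K4me1 in 3 of 3 libraries of each population. The Elovl5 member, near the gene of a fatty acid elongase at chr9:77908806-77913949, ranged from 94.6 to 99.9 over the 9 libraries. The Arid1b member (chr17:5188926-5191031, in an intron of this gene of a BAF chromatin remodelling subunit) ranged from 76.2 to 99.5, and the Mnt member (chr11:74831788-74839911, near a MAX-binding repressor) from 89.9 to 99.9, though it fell on a promoter of the full annotation. The Rpp14 member (chr14:8052965-8056743) had its midpoint in an intron of Abhd6.

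Without Pdgfra+ H3K27ac, the members of highest rank lay near Gpr107, Ncoa7, Phlda1, Kcmf1, Smarcad1 and Ostc. The Gpr107 member, chr2:31161669-31165012 in an intron of this receptor-like protein's gene, had percentiles of 98.6, 99.9 and 99 in Oct4+ and 82.6, 55 and 89.1 in DP, with no peak in any Pdgfra+ library. The Kcmf1 member (chr6:72924098-72928130, 24.1 kb from the TSS of this ubiquitin ligase gene) had 92.5, 90.9 and 86.8 in Oct4+, 74.2 and 93.7 in DP replicates 1 and 3, and no peak in DP replicate 2 or in Pdgfra+. It also had H3K9me3 consensus regions in DP and Pdgfra+. Both were acetylated in Oct4+ and DP and had no listed acetylation in Pdgfra+. At Ncoa7 (chr10:30725796-30739444) and Ostc (chr3:130690233-130697673, on a promoter of the full annotation) Pdgfra+ replicate 3 alone had a peak. Smarcad1 encodes a chromatin remodeller that helps to keep heterochromatin, and its member (chr6:65018599-65027034) had Oct4+ percentiles of 99.7, 99.4 and 97.6, DP percentiles of 66.8 and 69.2 in replicates 1 and 3, and a peak in Pdgfra+ replicate 3 alone. The same member carried H3K9me3 consensus regions in all 3 populations.

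The Phlda1 member, chr10:111571929-111584440 and 65.6 kb from the TSS, shows a limit of the rule. Oct4+ percentiles were 95.3, 94.8 and 66.6 and DP percentiles 97.8, 46 and 46.7, but Pdgfra+ replicates 1 and 2 each had a peak (percentiles 10.4 and 57.2) over different stretches of the region, so no consensus region formed. In the map of listed peaks, the Oct4+ H3K27ac peaks over this member lie left of or across its centre, while each DP library has a second peak to the right.

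**Figure D3:**
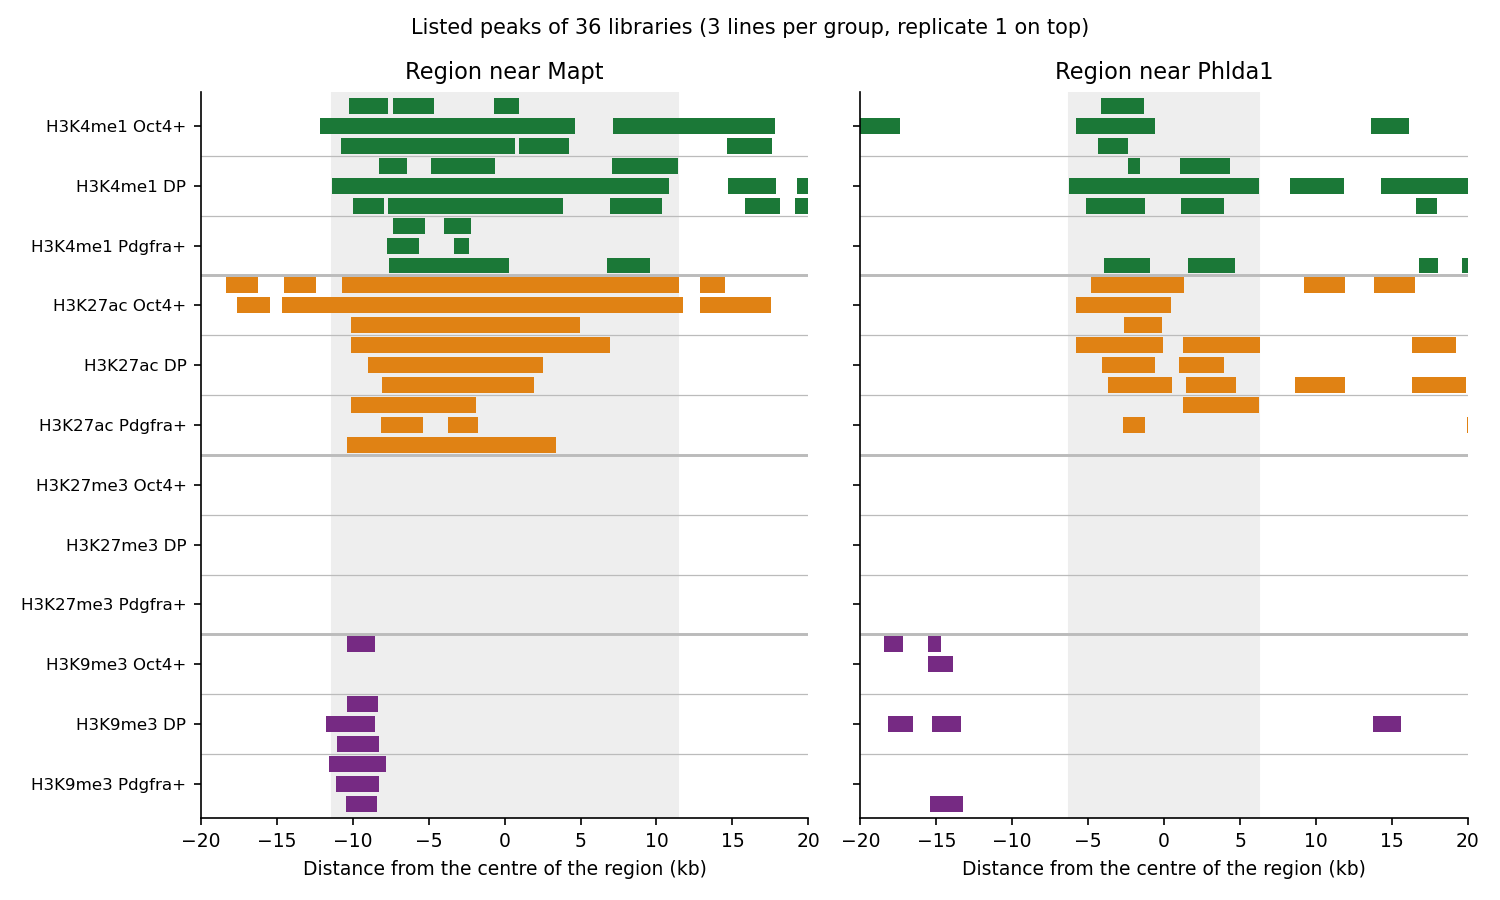
Listed peaks of the 36 libraries around the members near Mapt (left) and Phlda1 (right), as distance in kb from the centre of the member (grey band); each bar is a peak, with 3 lines per mark and population, replicate 1 on top. At Mapt H3K4me1 and H3K27ac peaks were listed in all 18 libraries and H3K9me3 peaks lay at the left end, whereas at Phlda1 Pdgfra+ replicate 3 had no H3K27ac peak.

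H3K9me3 covered part of more members in Oct4+ libraries than of the remaining DP H3K4me1 regions. An H3K9me3 consensus region of any population touched 118 members (11.2%), against 9.57% of all DP H3K4me1 regions outside promoters. In all 3 populations 27 members (2.56%) had one, a count whose share over all regions was not computed. Oct4+ libraries listed H3K9me3 over 10.4, 8.36 and 6.17% of members, DP libraries over 3.61, 8.07 and 4.37% and Pdgfra+ libraries over 7.88, 1.8 and 5.41%, and these shares overlapped between populations (exact permutation p = 0.282, adjusted p = 0.339). Relative to the 4538 other DP H3K4me1 regions outside promoters in the same library, members were higher by 4.36, 3.02 and 3.55 points in Oct4+ (3.64 ± 0.672, n = 3), by -0.248, 0.558 and 0.556 in DP (0.289 ± 0.465) and by 0.787, 0.614 and 0.786 in Pdgfra+ (0.729 ± 0.0991). Oct4+ stood apart from both other populations (exact permutation test of the F statistic over 9 libraries, p = 0.00357, the smallest possible, adjusted p = 0.0214). Because Oct4+ H3K27ac chose the members, this contrast within Oct4+ is not independent of the rule. Against the other active regions, mean H3K9me3 shares were 8.29 and 4.14% in Oct4+, 5.35 and 5.14% in DP and 5.03 and 4.77% in Pdgfra+. By the same exact permutation test, the call was lost when only the central 1 kb of each region was read (Oct4+ minus Pdgfra+ 1.73 in place of 2.92 points, adjusted p = 0.193) and with equal numbers of H3K9me3 peaks (1.42 points, adjusted p = 0.15), and over all alternatives the adjusted p ran from 0.0214 to 0.40. Members were wider than the remaining regions, and the part of width in this result was not tested beyond the central 1 kb.

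Members with H3K9me3 and among the highest in H3K27ac rank lay near Mapt and Frmd8. Mapt had H3K9me3 in DP and Pdgfra+ (3 of 3 each) with 1 of 3 in Oct4+. The member 31.4 kb from the Frmd8 TSS, chr19:5836144-5843852, had its midpoint in an exon of Neat1, the long non-coding RNA of paraspeckles, and H3K9me3 in 3 of 3 Oct4+ libraries and in no DP or Pdgfra+ library.

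H3K27me3 was listed at few members. The rule excluded it in DP, and an Oct4+ or Pdgfra+ H3K27me3 consensus region touched 9 members (0.855%), against 3.79% of all DP H3K4me1 regions outside promoters, which include regions with DP H3K27me3, and 16 of 797 other active regions (2.01%), which do not. All 9 had Pdgfra+ H3K27ac. Oct4+ H3K27ac also chose the members, and its lack the other active regions, so Oct4+ H3K27me3 shares are not independent of the choice. By library, H3K27me3 peaks lay over 0.285, 0.475 and 1.71% of members in Oct4+ and over 0, 0.19 and 0.38% in Pdgfra+ (0.823 ± 0.773 and 0.19 ± 0.19%, n = 3 each, exact two-sided permutation p = 0.20, adjusted p = 0.339), and the ranges overlapped. Same-numbered libraries of these groups deviated together, and within pairs Oct4+ was higher in 3 of 3 (exact permutation p with the replicate block 0.25, the smallest possible, adjusted p = 0.375). The members of highest rank lay near Bahcc1, Dusp4 and Lcor. Bahcc1 (chr11:120248993-120255229) had H3K27me3 in 2 of 3 Pdgfra+ libraries. Dusp4, a phosphatase that switches off ERK, had its member at chr8:34807915-34817515 with H3K27me3 in 2 of 3 Oct4+ libraries, beside Oct4+ H3K27ac percentiles of 79.8 and 96 in replicates 1 and 2 and no peak in replicate 3. The member near the starts of Col4a1 and Col4a2, which encode basement membrane collagen (chr8:11314142-11323206, midpoint in an intron of Col4a2), had H3K27me3 in 3 of 3 Oct4+ libraries and H3K27ac in 1 of 3, against DP H3K27ac percentiles of 87.2, 55 and 90.4 and Pdgfra+ percentiles of 76.2, 90.4 and 65.4. P4ha2, a collagen prolyl hydroxylase, also had H3K27me3 in 3 of 3 Oct4+ libraries.

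Genes near members were counted in 14 lists, with a gene counted when a member lay within 20 kb of its most upstream annotated start. Of 21911 protein-coding genes, 3.71% had such a member and 2.09% another active region, and these shares are the background for each list. Neither fraction was tested for any list.

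In the FGF and ERK list, 5 of 24 genes (20.8%) had a member and 0 had another active region. These were the receptor gene Fgfr2, the ERK-induced factor Etv4, and the pathway inhibitors Spry2, Spred2 and Dusp4. Fgfr2 was counted by a single start that lies in the Ctbp2 locus, while its 3 other annotated starts were at least 2834 kb away, so its 2 members, both with midpoints in an intron of Ctbp2, are described under that gene, and without Fgfr2 the count was 4 of 24 (16.7%). The Ctbp2 member at chr7:133107988-133118668, on a promoter of the full annotation, had H3K27ac percentiles of 97.1, 96.9 and 86.8 in Oct4+, 77.2, 1.58 and 72.2 in DP and no peak, 0.835 and 4.87 in Pdgfra+, and the other (chr7:133100466-133106178) had no Pdgfra+ H3K27ac peak. Acetylation in this intron of the gene of a transcriptional co-repressor stood high in the Oct4+ lists and at the bottom of the shorter Pdgfra+ lists. Spry2 (chr14:105898506-105903825) had peaks in 2 of 3 Oct4+, 3 of 3 DP and 1 of 3 Pdgfra+ libraries, and Spred2 (chr11:19925372-19930062) in 3 of 3 of each population.

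Naive pluripotency genes had a member at 3 of 25 (12%), the same count as for other active regions, at different genes. The members lay near Nanog, Sall4 and Tfcp2l1, and the other active regions near Klf4, Lin28a and Prdm14. The members at Nanog, Sall4 and Etv4 touch a promoter of the full annotation, as do those near P4ha2, Smad7, Amotl2, Slc2a3 and Gapdh from other lists. Tfcp2l1, a factor of naive pluripotency, had its member in an intron at chr1:118645120-118651024 with H3K27ac percentiles of 87.9, 90.9 and 95.2 in Oct4+, 38.8, no peak and 29.5 in DP and 3.63 in Pdgfra+ replicate 3 alone. H3K4me1 at this member stood at 98.5, 96.5 and 72.8 in Oct4+ and at 82.9, 94.4 and 96.1 in DP. Within the list of each library, its DP H3K4me1 thus ranked near that of Oct4+ while its DP H3K27ac ranked lower. The H3K27ac lists held 38619, 65131 and 8574 peaks in Oct4+ and 10957, 3079 and 12244 in DP. These ranks are therefore not on one scale. The member 18.5 kb from the Nanog TSS, chr6:122725982-122741389, had its midpoint in an intron of Slc2a3, and H3K27ac in 3 of 3 libraries of each population at percentiles from 1.58 to 63. Of 18 formative and primed genes, 1 had a member (Etv4), and 0 another active region.

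LIF and JAK-STAT genes had a member at 2 of 22 (9.09%), Lifr and Socs3. The Lifr member (chr15:7086491-7093648), at the gene of the LIF receptor, had H3K27ac percentiles of 79.8 and 87.6 in Oct4+ replicates 1 and 2, 66.8, 71.7 and 46.7 in DP and 23.1, 65.2 and 46.7 in Pdgfra+, and covers a start found in the full annotation alone, with the starts of the basic annotation at least 35.9 kb away. Socs3, a feedback inhibitor of JAK-STAT signalling, had its member at chr11:117971424-117978262, with 95.3, 94.8 and 43.3 in Oct4+, 33.8 and 25.3 in DP replicates 1 and 3, and 15.9 and 6.57 in Pdgfra+ replicates 1 and 2. Another active region lay near 1 gene of this list, again Socs3.

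Endoderm transcription factors went the other way by count. Only 1 of 15 (6.67%), Klf6, had a member, while 4 (26.7%), among them Gata4, Gata6 and Foxa2, had another active region. Endoderm receptor, matrix and secreted protein genes had a member at 6 of 25 (24%) and another active region at 7 (28%). The members lay near Col4a1, Col4a2, Hspg2, P4ha2, Sparc and Srgn, and all had Pdgfra+ H3K27ac. Hspg2 encodes the basement membrane proteoglycan perlecan, and its member (chr4:137471529-137490673) had percentiles of 79.8, 82.7 and 66.6 in Oct4+, 99.2, 97.8 and 98.8 in DP and 95.9, 90.4 and 95.6 in Pdgfra+. Its acetylation ranked higher in every DP and Pdgfra+ library than in any Oct4+ library, unlike that in the Ctbp2 intron and at Tfcp2l1. Srgn, the gene of serglycin (chr10:62519639-62525289), had no peak in Oct4+ replicate 3 and 85.8 to 99.1 in DP.

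**Figure D4:**
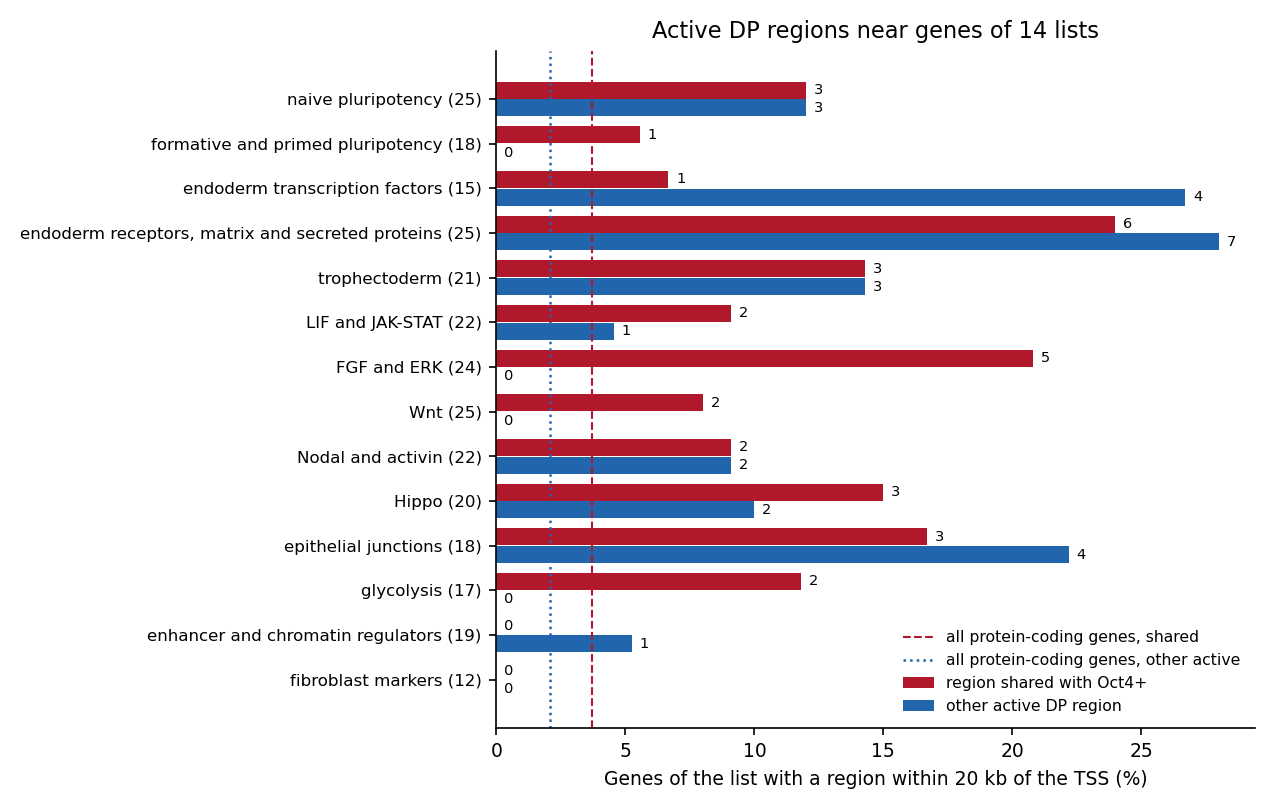
Percent of the genes of 14 lists with a member (red) or another active region (blue) within 20 kb of the TSS; the number in brackets is the list's size, the number at each bar is the count of genes, and dashed and dotted lines give the shares of all protein-coding genes (3.71 and 2.09%). FGF and ERK genes had 5 with a member and 0 with another active region, and endoderm transcription factors 1 and 4. The FGF and ERK and trophectoderm bars include Fgfr2, counted by a start in the Ctbp2 locus, without which 4 and 2 genes had a member.

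The remaining lists had at most 3 genes with a member each. Trophectoderm genes had a member at 3 of 21 (14.3%): Krt8 and Krt18, epithelial keratins that shared 1 member (chr15:102015655-102018854), and Fgfr2 by the start described above, without which the count was 2 of 21 (9.52%). Hippo genes had 3 of 20 (15%), the YAP targets Ccn1, Ccn2 and Amotl2, and Ccn2 (chr10:24589879-24593990, on a promoter of the full annotation) had Oct4+ percentiles of 97.7, 90.9 and 81.9 with 3.31 and 14.3 in DP replicates 1 and 3 and no Pdgfra+ peak. Epithelial junction genes had 3 of 18 (16.7%), Ezr, Pard6b and Pkp2. Wnt genes had 2 of 25 (8%), the gene of beta-catenin, Ctnnb1, and the repressor gene Tcf7l1. Nodal and activin genes had 2 of 22 (9.09%), the signal transducer Smad2 and the inhibitor Smad7, and glycolysis genes 2 of 17 (11.8%), Gapdh and the glucose transporter gene Slc2a3. Over the Ezr, Ctnnb1 and Smad2 members, only 1 of 3 DP libraries had an H3K27ac peak. None of 19 enhancer and chromatin regulators and none of 12 fibroblast marker genes had a member.

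A few genes had 3 members within 20 kb: Actn4, an actin cross-linker, Hs6st1, which modifies heparan sulphate, and the neighbours Pak4 and Samd4b, which share their 3. At Actn4 and Hs6st1 all 3 members had Pdgfra+ H3K27ac, and at Pak4 and Samd4b 1 of 3 had it. Among the widest members were those at Fam129b (36537 bp, chr2:32877331-32913867) and Tnrc18 (34269 bp, chr5:142779819-142814087). Both touch a promoter of the full annotation.

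Sequence was then compared in 1000-base windows at the DP H3K4me1 maximum. GATA matches lay in 468 of 1053 member windows (44.4%), 436 of 797 other active windows (54.7%) and 48.3% of all 5591. The order of members below other active regions held in each of 3 bands of GC content (44.4 and 62.3% in the lowest band, 50.6 and 54.6% in the middle, 39.6 and 45.7% in the highest). SOX matches were likewise fewer in members (20.3 against 25.1%, all 21.4%), in each band. KLF (67.7 against 62.6%, all 64.9%) and TFAP2 (30.9 against 26%, all 27.7%) matches were more frequent in members, whose median GC content was 49% against 47.7%. Within GC bands the TFAP2 shares were 16.8 and 17.1%, 26.4 and 22%, and 43 and 41.5%, so the order turned in the lowest band. The KLF shares were 58.2 and 51.6%, 64.4 and 63.8%, and 76.2 and 74.4%, so members stood above other active regions in each band. All regions stood at 52.1, 65.1 and 77.2%, above members in the middle and highest bands.

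OCT matches were no more frequent in members (15.2%) than in other active regions (16.3%) or in all windows (16.7%), although in the lowest GC band the order turned (23.1, 18.9 and 21.7%). STAT (4.37, 4.77 and 4.31%), FOX (16, 16.8 and 15.8%) and ESRRB and NR5A2 matches (26.5, 25.1 and 24.4%) also differed little. TEAD matches stood at 21, 24.5 and 19.3% and AP-1 matches at 32.2, 33.5 and 29.1% in the same order. Between the subsets, AP-1 matches lay in 34.7% of members with and 28.1% of members without Pdgfra+ H3K27ac, and GATA matches in 46.7 and 40.7%. Windows are not replicates, and no test was made of these shares. KLF and TFAP2 motifs are rich in G and C, and motifs were counted independently of one another, so overlapping matches count for each.

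**Figure D5:**
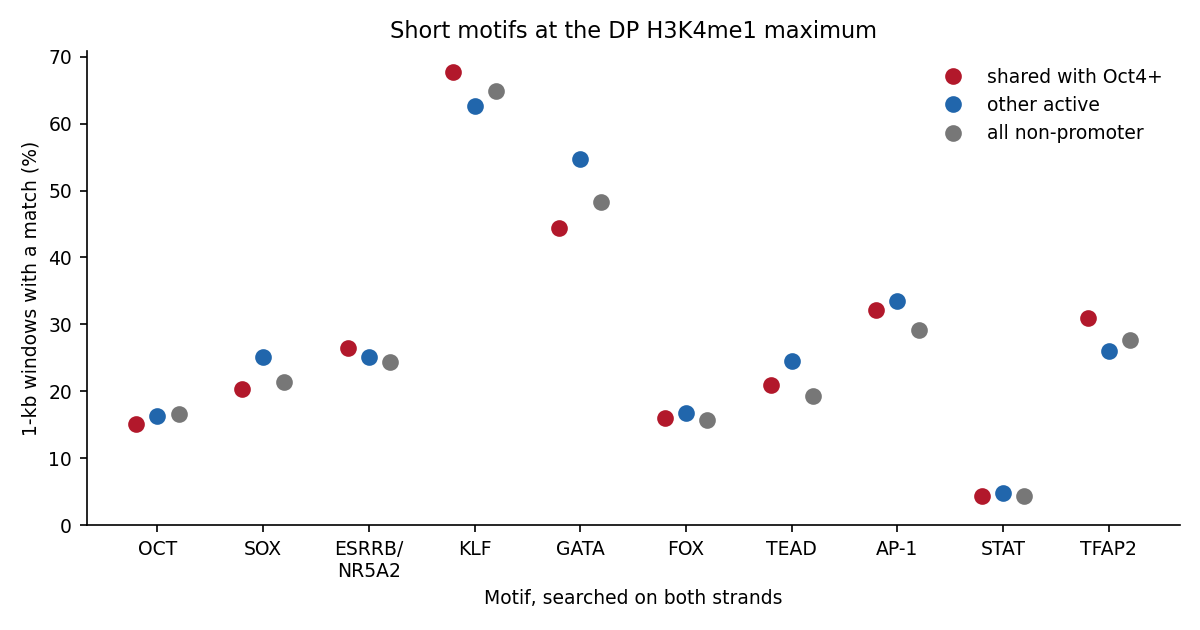
Percent of 1000-base windows at the DP H3K4me1 maximum with a match to each motif, for members (red, 1053 windows), other active regions (blue, 797) and all DP H3K4me1 regions outside promoters (grey, 5591). GATA shows the largest gap of the 10, at 44.4% of members and 54.7% of other active regions, while OCT and STAT shares were close in all 3 sets.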

How the data were processed

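CUT&Tag libraries of 4 histone marks in 3 sorted populations of mouse nEnd cells (3 replicates each, 36 libraries) were read as deposited peak lists. The submitters' processing notes name bcl2fastq 2.19.1, Bowtie2, SAMtools 1.12, deepTools, SEACR, bedtools 2.26.0 and the build mm10. The authors called peaks in each library, and each deposited peak carries its total and maximum signal. Read depth was not given, so no interval for counting error was computed, and 3 IgG samples were not used. No 2 of the 36 lists were identical.

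Peaks were merged into consensus regions with Python 3.11.15 and NumPy 2.4.6, and overlaps were checked with bedtools 2.31.1. Promoters and genes came from the GENCODE basic annotation of GRCm38, and printed sequence from RefSeq GRCm38. Any overlap of at least 1 base counted. The labels give replicate numbers but no shared source; of 12 pairs of groups, only H3K27me3 in Oct4+ and Pdgfra+ had every same-number correlation over 0.1 (0.307, 0.12 and 0.254) and was read as paired too. Shares were compared over libraries by exact permutation tests, with Benjamini-Hochberg adjustment over 6 tests. As a check of the code, the rule returned 100% of 800 members in simulated lists of 4000 regions. Each simulated member was placed in 2 of 3 lists, without promoters or DP H3K27me3 regions. That outcome was therefore set by the design and does not measure how reliable the rule is in these data. The members, gene lists and motifs were chosen with earlier results of these data known. Named were the 6 members of highest mean H3K27ac percentile (DP and Oct4+ libraries) in each subset, members within 20 kb of a listed gene, the 3 of highest rank with H3K27me3 and with H3K9me3, the 3 widest, genes with 3 members, and markers. The Ctbp2 intron and the remarks on single starts were added after their values were seen. Some items that these rules name are not reported here.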

Additional observations from a re-analysis of the deposited data

Results flagged for a closer look

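The share of members with an H3K9me3 peak, less the share of the other DP H3K4me1 regions outside promoters, differed between populations. It was 2.92 percentage points higher in Oct4+ than in Pdgfra+ libraries, with 3.64 ± 0.672 in Oct4+, 0.289 ± 0.465 in DP and 0.729 ± 0.0991 in Pdgfra+ (n = 3 each, exact permutation p = 0.00357, adjusted p = 0.0214). Oct4+ H3K27ac chose the members, so this result is not independent of the rule.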

How the results depend on the processing

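The number of members depended on the definition of a consensus region. It was 2919 (1679 with Pdgfra+ H3K27ac) from 1 or more libraries, 166 (125) from all 3, 70 (52) with equal numbers of peaks per library, 398 (253) when 50% of each list, by total signal, was used, and 274 to 370 (217 to 221) when 1 replicate was left out. With H3K27ac over 50% of the region 427 members had Pdgfra+ H3K27ac. By exact permutation, the H3K9me3 excess of Oct4+ over Pdgfra+ kept its direction but lost its call with equal numbers of peaks (1.42, adjusted p = 0.15), the highest 50% of peaks (1.85, 0.107), the central 1 kb (1.73, 0.193), both of the equal numbers and the central 1 kb (0.759, 0.15), members from all 3 libraries (2.52, 0.30) and each replicate left out (2.59 to 3.17, 0.40, where 2 libraries a group cannot pass). The H3K4me1 share of members turned to -6.65 with equal numbers, to -3.83 with the central 1 kb as well, and ran from -15.5 to 27.5 with 1 replicate left out, lowest without replicate 2. The H3K27me3 difference was 0 for members from all 3 libraries. The causes were not tested. The full-annotation promoters and the combined setting were chosen after seeing the data.

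With a replicate block the H3K9me3 excess was 2.92 with an adjusted exact permutation p = 0.167, where the smallest p, 0.0278, cannot pass after adjustment over 6 tests. No other result was past the threshold with or without the block. The replicate numbers of the H3K9me3 groups were not taken to pair the samples.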
